A study of Homo sapiens with 6 samples.

Results

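The 9 genes described here belong to the p53 pathway: MDM2 and MDM4, which restrain p53, and BAX, BBC3, FAS, ZMAT3, TP53INP1, RRM2B and GDF15, which p53 can switch on. They were taken by symbol from a table of 11844 protein coding genes, and all 9 were listed and tested. RNA was sequenced from 2 groups of 3 libraries of C4-2B, a human cell line of castration-resistant prostate cancer that descends from LNCaP. The cells of the LINC00888 group stably carried the pcDNA 3.1 vector with the long noncoding RNA LINC00888, and those of the empty vector group the same vector without it. By the labels, quantitative PCR on the sequenced RNA found LINC00888 at 15.27 ± 2.4 times the control level (SD, number of measurements not stated). Whether libraries of 1 group were cultured apart, and how many sublines a group holds, is not in the labels. The p-values therefore measure only how far these libraries scatter, and any other difference between the sublines cannot be told apart from LINC00888.

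p53 is a transcription factor that responds to DNA damage and other stress by activating genes of cell cycle arrest, DNA repair and cell death. MDM2 is a ubiquitin ligase that marks p53 for destruction, and it is itself a p53 target, which closes a feedback loop. MDM4 is a relative of MDM2 that mainly blocks the activity of p53. LNCaP, the parent of C4-2B, is known to keep an unmutated p53 gene.

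Levels are FPKM, fragments scaled to the length of the gene model and to the mapped fragments of the library. They summed to between 211148 and 217637 per library over the listed genes, with a median gene between 5.83 and 6.15. The tables hold no counts, so the sequencing depth is unknown. The cells carried the markers of their labelled type: all 10 luminal prostate genes checked were listed, with a summed FPKM between 1392 and 1415 in the LINC00888 libraries, against 1356 to 1390 in the empty vector libraries. Of these 10 markers, 3 were higher and 5 lower with LINC00888 (adjusted p under 0.05 by limma). That is 80%, beside 13.5% of all genes tested. The part of this shift in the results below was not tested. Of the fibroblast, leukocyte and endothelial markers, 2 of 6, 1 of 5 and 1 of 4 were listed, at a summed FPKM of at most 3.88, 0.966 and 0.559 in any library. The fibroblast marker PDGFRB was called higher, at 0.6502 ± 0.138 FPKM with LINC00888 and 0.308 ± 0.0617 with the empty vector (SD, n = 3 each; adjusted p = 0.0372 by limma), and it passed the filter only through the LINC00888 libraries, while COL1A2, COL3A1, DCN and LUM were not listed. Fewer cells that express a gene and less of its RNA per cell cannot be told apart in such bulk samples.

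TP53INP1 and ZMAT3 rose and BAX fell with LINC00888, and the other 6 genes did not pass the test (limma on log2(FPKM + 0.5), adjusted p under 0.05). That made 3 of 9 past the threshold, where 13.5% of the 11726 genes tested passed, 8.02% of them higher and 5.46% lower. By the ratio of means, the 1.38-fold rise of TP53INP1 was the largest of the 3 changes. The groups did not overlap in 4 of the 9 genes, the called 3 and RRM2B, or 44.4%, beside 38.3% of all genes tested. LINC00888 lay above in 3 of the 9, beside 23.5% of all genes, and below in 1 of the 9, beside 14.8%. The median log2 fold change of the 9 was 0.10, beside 0.03 over all genes.

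**Figure D1:**
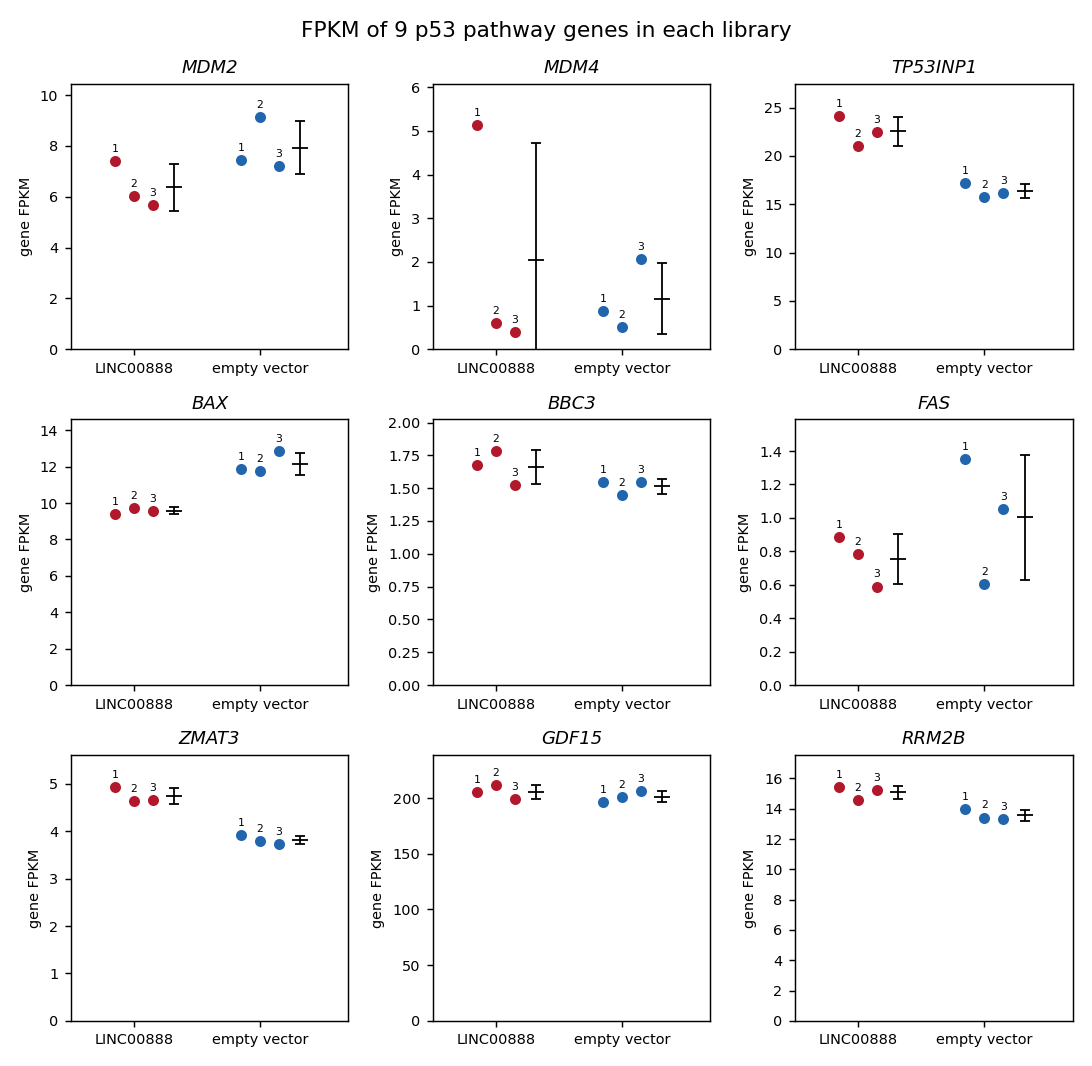
Gene FPKM of the 9 members in each library, with the LINC00888 libraries in red on the left and the empty vector libraries in blue on the right. Small digits give the replicate, and bars show the mean and SD of 3 libraries, cut off at 0. TP53INP1, ZMAT3 and RRM2B lie above, and BAX below, the empty vector libraries without overlap, while a single LINC00888 library carries the high MDM4 value of 5.14.

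MDM2 lay at 7.42, 6.01 and 5.67 FPKM in LINC00888 libraries 1, 2 and 3, against 7.44, 9.14 and 7.23 in empty vector libraries 1, 2 and 3. LINC00888 library 1 fell among the control values, so the groups overlapped. The means were 6.36 ± 0.926 and 7.94 ± 1.05 FPKM (SD, n = 3 each), a log2 fold change of -0.30 with an SE of 0.13, which did not pass (adjusted p = 0.166 by limma). MDM2 sat near the middle of the expression range, above 55.3% of the genes tested.

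MDM2 has a second promoter inside its first intron through which p53 acts, and FAS has a p53 binding site in its first intron. The letters there can be read from the RefSeq start windows of GRCh38.p14, which run from 250 bases before a start to 50 after it. Each was searched for the p53 response element consensus of 20 letters, without a spacer, which reads the same on both strands. The windows of the 7 members with a sequence used here numbered 13. Those of TP53INP1 and RRM2B are not reported here. A stretch with at most 2 mismatches stood in 3 of the 13, 2 overlapping windows of MDM2 that share it and 1 of FAS, and in 0.649% of all 35116 windows. A stretch with exactly 3 mismatches stood in the GDF15 window, and 5.2% of all windows held one with at most 3. These are shown because they are the closest matches in the windows of the 7 members. The 20 letters are in capitals and flanks in lower case, 5′ to 3′ on the plus strand.
MDM2, chr12:68808918-68808947: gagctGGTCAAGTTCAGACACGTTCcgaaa
FAS, chr10:88991304-88991333: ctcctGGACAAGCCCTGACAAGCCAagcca
GDF15, chr19:18386181-18386207: tgcacAGCCATGCCCGGGCAAGAACtc
The MDM2 stretch lies at -94 to -75 from the nearer of the 2 starts whose windows hold it, the FAS stretch at -122 to -103 and the GDF15 stretch at 28 to 47 after the start. The best match of BAX and of ZMAT3 had 4 mismatches, and that of BBC3 and MDM4 had 5. How common such matches are over all windows was not counted. A match is a string of letters in these windows only, and sites elsewhere in the genes were not searched.

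MDM4 was the least steady member. It had 5.14, 0.606 and 0.396 FPKM in LINC00888 libraries 1, 2 and 3, against 0.883, 0.512 and 2.07 in empty vector libraries 1, 2 and 3. The highest library exceeded the lowest 13.0-fold (12.98), and 1 library of each group stood apart from the other 2. The log2 fold change was 0.21 with an SE of 0.78 (adjusted p = 0.885 by limma). Without LINC00888 library 1 it was -0.62 and without empty vector library 2 it was -0.09, so its sign rests on single libraries. None of its transcripts was in the transcript table used here.

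The ratio of MDM4 to MDM2, whose proteins act together on p53, varied with MDM4. The ratio was 0.694, 0.101 and 0.0699 in LINC00888 libraries 1, 2 and 3, against 0.119, 0.0560 and 0.287 in empty vector libraries 1, 2 and 3. The groups overlapped and the difference of 0.45 on the log2 scale did not stand out (exact two-sided permutation test, p = 0.7, adjusted to 0.7 over the 3 ratios examined, where 0.1 is the smallest p that 3 against 3 allows).

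BAX, the pore-forming protein that opens the mitochondrial outer membrane in apoptosis, fell. It had 9.41, 9.75 and 9.59 FPKM in LINC00888 libraries 1, 2 and 3, against 11.9, 11.7 and 12.9 in empty vector libraries 1, 2 and 3. Every LINC00888 library lay below every empty vector library. The means of 9.58 ± 0.174 and 12.2 ± 0.612 FPKM (SD, n = 3 each) make it 1.27-fold lower, with a log2 fold change of -0.33 and an SE of 0.05 (adjusted p = 0.0133 by limma). BAX (ENSG00000087088.19_3) spans 49458072 to 49465055 on the plus strand of chromosome 19 in the positions of the deposited table, whose build is not stated. The call was lost without LINC00888 library 1 (adjusted p = 0.0529), with a log2 fold change of -0.31.

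Of the transcripts of BAX, 4 were listed. BAX-202, with 6 exons, is the model of the full-length protein in common use. BAX-201 reads on from exon 5 into the intron behind it, BAX-203 leaves out exon 3, and BAX-213 joins exon 1 to exon 4 and also reads on past exon 5. A join of each of 3 of these transcripts is shown from the GENCODE release 29 models, whose version numbers equal the deposited ones. The join of exon 5 to exon 6 is shared by BAX-202 and BAX-203, and the reading into the intron by BAX-201 and BAX-213. The last 15 bases of the exon are in lower case and the first 15 bases after it in capitals, 5′ to 3′. The first line joins exon 5 to exon 6, the second reads from exon 5 into the intron and the third joins exon 1 to exon 4, numbered as in BAX-202.
BAX-202: gaccagggtggttggGACGGCCTCCTCTCC
BAX-201: gaccagggtggttggGTGAGACTCCTCAAG
BAX-213: agcccagaggcggggGATGATTGCCGCCGT
In GRCh38 the shared end of exon 5 is chr19:48960900-48960914, followed by chr19:48961532-48961546 in BAX-202 and by chr19:48960915-48960929 in BAX-201. BAX-213 joins chr19:48954948-48954962 to chr19:48956198-48956212.

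BAX-202 had 10.2, 11.4 and 10.1 FPKM in LINC00888 libraries 1, 2 and 3, against 17.0, 17.3 and 19.6 in empty vector libraries 1, 2 and 3. Its groups did not overlap, and the log2 fold change of -0.74 with an SE of 0.09 was larger than that of the gene, but it did not pass among transcripts (adjusted p = 0.0601 by limma). BAX-213 had 1.16, 2.01 and 1.94 FPKM in LINC00888 libraries, against 0.209, 0.192 and 0.484 in empty vector libraries. It reached the minimum of 0.5 FPKM that the test requires in LINC00888 libraries alone, so it was tested only because it was high there, and its values are given as a description. Transcripts passed far less often than genes: 102 of 26941 tested, or 0.379%, and 0 of the 14 tested transcripts of the members (limma). At an unadjusted p under 0.05 there were 4 of these 14 and 2989 of all 26941, and the groups did not overlap in 5 of the 14, or 35.7%, beside 19.9% of all transcripts. BAX-213 is among those 4 and those 5.

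**Figure D2:**
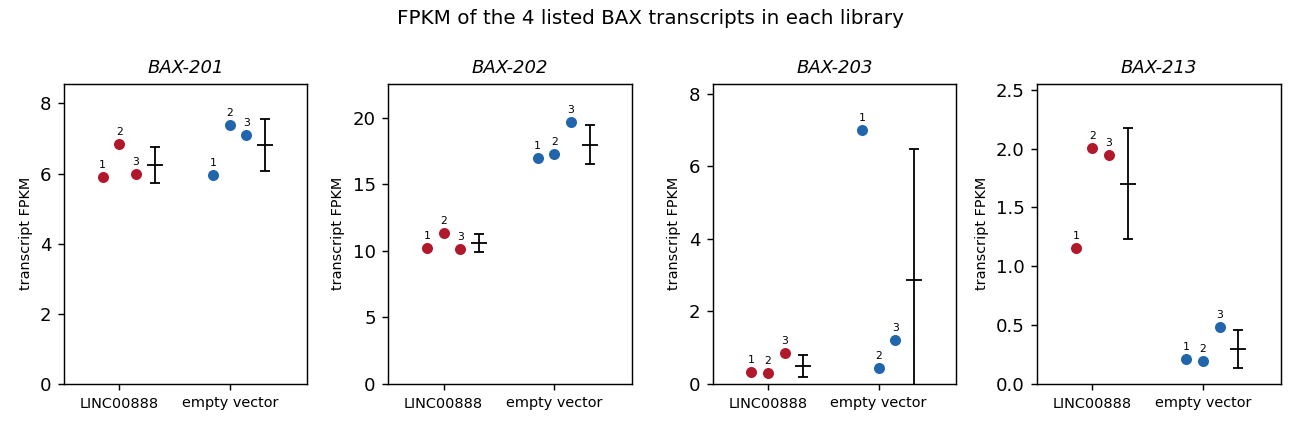
FPKM of the 4 listed BAX transcripts in each library, LINC00888 in red on the left and empty vector in blue on the right, with the mean and SD of 3 libraries (bars cut off at 0) and the replicate as a small digit. BAX-202 lies lower and BAX-213 higher in all 3 LINC00888 libraries, BAX-201 overlaps, and BAX-203 is high in empty vector library 1 alone, at 7.01 FPKM.

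BAX-201 and BAX-203 overlapped between the groups. BAX-201 averaged 6.24 ± 0.514 FPKM with LINC00888 and 6.81 ± 0.743 FPKM with the empty vector (SD, n = 3 each). BAX-203 had 0.340, 0.303 and 0.845 FPKM in LINC00888 libraries, against 7.01, 0.430 and 1.20 in empty vector libraries. As shares of the summed transcript FPKM, BAX-202 made up 55.7% ± 2.25 with LINC00888 and 64.6% ± 7.22 with the empty vector, and BAX-213 8.88% ± 2.03 with LINC00888 and 1.05% ± 0.565 with the empty vector (SD, n = 3 each). The share of BAX-202 overlapped between the groups (exact two-sided permutation test, p = 0.2, adjusted to 0.56 over 14 shares). Transcript FPKM of BAX summed to 19.01 on average with LINC00888 and 27.95 with the empty vector, above the gene values of 9.58 and 12.2 for LINC00888 and the empty vector, so gene and transcript FPKM are not on 1 scale.

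The counterweight of BAX, the survival factor BCL2L1 that holds BAX-type proteins in check, averaged 21.3 ± 1.61 FPKM with LINC00888 and 21.7 ± 0.395 with the empty vector (SD, n = 3 each; log2 fold change -0.03, adjusted p = 0.804 by limma). The ratio of BAX to BCL2L1 was 0.406, 0.473 and 0.476 in LINC00888 libraries 1, 2 and 3, against 0.559, 0.538 and 0.585 in empty vector libraries 1, 2 and 3. The ratios did not overlap, and their difference of -0.32 on the log2 scale reached the smallest p that the exact permutation test allows here (two-sided p = 0.1, adjusted to 0.3 over the 3 ratios).

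BBC3, which encodes PUMA, an activator of BAX with a BH3 domain, was low and did not pass. Its FPKM was 1.68, 1.78 and 1.53 in LINC00888 libraries 1, 2 and 3, against 1.55, 1.44 and 1.55 in empty vector libraries 1, 2 and 3. LINC00888 library 3 lay within the control values. The log2 fold change was 0.10 with an SE of 0.07 (adjusted p = 0.391 by limma), and after cyclic loess it was -0.0060.

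FAS, the cell surface death receptor, was the lowest member. It had 0.883, 0.782 and 0.589 FPKM in LINC00888 libraries 1, 2 and 3, against 1.35, 0.607 and 1.05 in empty vector libraries 1, 2 and 3. Empty vector library 2 lay within the LINC00888 values, and only 6.33% of tested genes had a lower mean. The log2 fold change of -0.24 with an SE of 0.20 did not pass (adjusted p = 0.474 by limma). It was -0.07 without empty vector library 1 and -0.45 without empty vector library 2. At this level the pseudocount of 0.5 shrinks the fold change, and by the ratio of means FAS was 1.34-fold lower. FAS overlaps ACTA2, and MDM2 and TP53INP1 overlap CPM and NDUFAF6, on the opposite strand. The libraries were strand-specific, but whether the strand was used in counting is not given in the sources used here.

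Around BAX, BBC3 and FAS, the list of mitochondrial and death receptor apoptosis genes held 37 genes, of which 33 were listed and tested. With BAX, 3 passed: 1 rose and 2 fell, or 9.09%, below the 13.5% of all genes. CASP8, the initiator caspase of death receptors, fell to 3.59, 3.75 and 4.04 FPKM in LINC00888 libraries, against 5.12, 5.64 and 4.72 in empty vector libraries (log2 fold change -0.40, SE 0.08, adjusted p = 0.0273 by limma). BOK, a BAX relative, rose to 25.8, 29.2 and 27.4 FPKM in LINC00888 libraries, against 22.9, 23.2 and 20.3 in empty vector libraries (log2 fold change 0.30, SE 0.07, adjusted p = 0.0382). The groups did not overlap in either gene. Abundant members of the sublists that did not pass included MCL1, a survival factor (log2 fold change -0.08, adjusted p = 0.417), the death receptor TNFRSF10B (0.09, adjusted p = 0.143), FADD, which links receptors to CASP8 (-0.14, adjusted p = 0.274), and CYCS, the cytochrome c of the apoptosome (-0.25, adjusted p = 0.146). The median of the list was -0.02. Its count was 0 without LINC00888 library 1, and 1 without LINC00888 library 2 or empty vector library 1 or 2. It was 2 without either of the other libraries. The calls of CASP8 (adjusted p up to 0.0884) and BOK (up to 0.1) were among those lost. With all 6 libraries but eBayes without trend and robust, BOK lost its call as well, which left 0 higher and 2 lower.

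TP53INP1, a stress-induced protein that acts in cell death and autophagy, showed the larger rise of the called members that rose. It had 24.1, 21.1 and 22.5 FPKM in LINC00888 libraries 1, 2 and 3, against 17.2, 15.7 and 16.1 in empty vector libraries 1, 2 and 3. The lowest LINC00888 library lay clear of the highest control. The means of 22.6 ± 1.52 and 16.4 ± 0.757 FPKM (SD, n = 3 each) differ 1.38-fold, with a log2 fold change of 0.45 and an SE of 0.06 (adjusted p = 0.00995 by limma, rank 318 of 11726 by p). Of the 3 called members it alone kept its call without each of the 6 libraries, with an adjusted p of at most 0.0395. TP53INP1 (ENSG00000164938.13_2) spans 95938200 to 95961639 on the minus strand of chromosome 8 in the deposited table.

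The split of TP53INP1 between its transcripts jumped between libraries while the sum did not. TP53INP1-201 had 0.239, 4.69 and 5.14 FPKM in LINC00888 libraries 1, 2 and 3, against 4.88, 0.102 and 4.89 in empty vector libraries 1, 2 and 3. LINC00888 library 1 and empty vector library 2 gave nearly all of the signal to TP53INP1-202, at 99.0% and 99.4%. The summed transcript FPKM was 24.3, 21.2 and 22.7 in LINC00888 libraries, against 17.3, 15.9 and 16.3 in empty vector libraries, without overlap. The relative TP53INP2 had 9.48 ± 0.396 FPKM with LINC00888 and 10.4 ± 0.0769 with the empty vector (SD, n = 3 each) and did not pass (log2 fold change -0.13, adjusted p = 0.11).

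ZMAT3, an RNA-binding zinc finger protein also called Wig-1, rose. It had 4.94, 4.64 and 4.65 FPKM in LINC00888 libraries 1, 2 and 3, against 3.91, 3.80 and 3.74 in empty vector libraries 1, 2 and 3. No library of one group reached the other. The means of 4.74 ± 0.171 and 3.82 ± 0.0871 FPKM (SD, n = 3 each) differ 1.24-fold, with a log2 fold change of 0.28 and an SE of 0.05 (adjusted p = 0.0232 by limma). Leaving out any of the 6 libraries ended its call (adjusted p = 0.0538 without empty vector library 1, up to 0.0793 without LINC00888 library 1), while the log2 fold change stayed between 0.25 and 0.30. ZMAT3 (ENSG00000172667.10_2) spans 178735011 to 178790067 on the minus strand of chromosome 3. Its main transcript ZMAT3-201 had 4.69, 4.51 and 4.50 FPKM in LINC00888 libraries, against 3.71, 3.86 and 3.59 in empty vector libraries, and did not pass among transcripts (adjusted p = 0.45). The related ZMAT2 did not pass (log2 fold change 0.07, adjusted p = 0.405).

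RRM2B, the p53-inducible small subunit of ribonucleotide reductase that supplies deoxynucleotides for repair, did not pass, although its groups did not overlap. It had 15.5, 14.6 and 15.2 FPKM in LINC00888 libraries 1, 2 and 3, against 14.0, 13.4 and 13.3 in empty vector libraries 1, 2 and 3. The log2 fold change was 0.15 with an SE of 0.04 (adjusted p = 0.0698 by limma), which left it just outside the threshold. RRM2, the small subunit of dividing cells, was uneven, with 20.3, 27.5 and 27.5 FPKM in LINC00888 libraries and 11.2, 21.8 and 10.8 in empty vector libraries (log2 fold change 0.82, SE 0.29, adjusted p = 0.127). The large subunit RRM1 averaged 46.8 ± 3.29 FPKM with LINC00888 and 42.1 ± 1.31 with the empty vector (SD, n = 3 each; adjusted p = 0.139). The ratio of RRM2B to RRM2 was 0.761, 0.531 and 0.553 in LINC00888 libraries, against 1.25, 0.616 and 1.23 in empty vector libraries, and the groups overlapped through empty vector library 2 (exact permutation test, two-sided p = 0.2, adjusted to 0.3 over the 3 ratios).

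GDF15, a secreted stress hormone of the TGF-beta superfamily, was by far the most abundant member, above 99.2% of the genes tested. It had 205, 212 and 199 FPKM in LINC00888 libraries 1, 2 and 3, against 197, 201 and 207 in empty vector libraries 1, 2 and 3. The groups were intermixed, with a log2 fold change of 0.03 and an SE of 0.04 (adjusted p = 0.647 by limma). Its spread was also the smallest of the 9, with the highest library 1.08 times the lowest. Nearly all of its signal came from GDF15-201, at 99.9% of the summed transcript FPKM with LINC00888 and 99.7% with the empty vector. Of 10 ligands of the superfamily 5 were listed and 1 passed, or 20%, beside 13.5% of all genes. It was INHBB, an activin subunit, at 8.74 ± 0.0702 FPKM with LINC00888 and 6.95 ± 0.721 with the empty vector (SD, n = 3 each; adjusted p = 0.0432). That call was lost after median ratio scaling, quantile normalization and cyclic loess and without each library but empty vector library 2 (adjusted p up to 0.119).

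**Figure D3:**
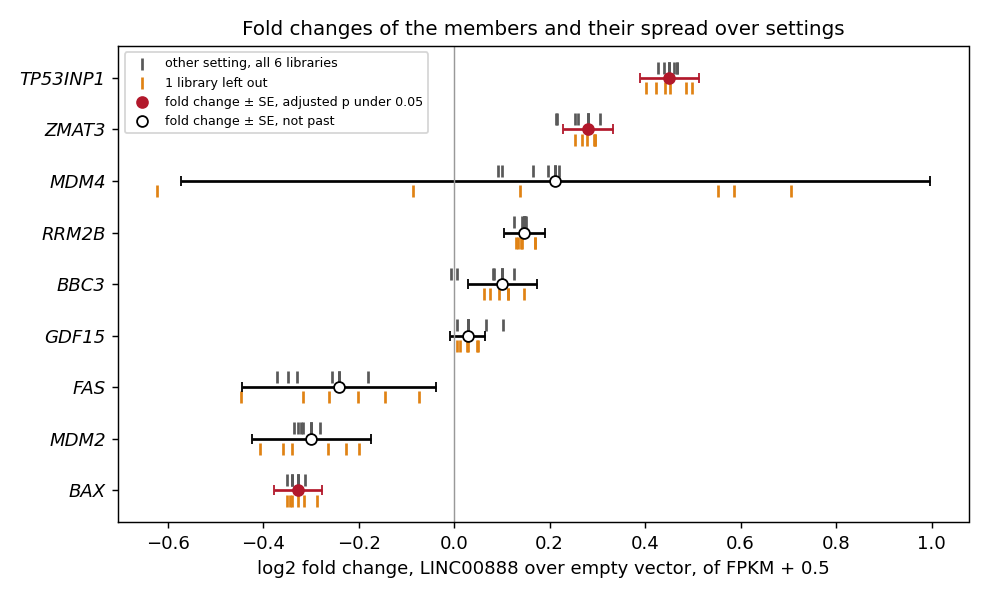
Log2 fold change of each member, LINC00888 over empty vector, as a point with its SE, filled in red where the adjusted p was under 0.05. Ticks above a point give the same value under other settings with all 6 libraries, and orange ticks below it with 1 library left out. The ticks of every member but MDM4 and BBC3, called or not, stay on the same side of 0 as its point. Those of MDM4 run from -0.62 to 0.71.

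By level, the order over all 6 libraries was GDF15 at a mean of 203.5 FPKM, TP53INP1 at 19.5, RRM2B at 14.3, BAX at 10.9, MDM2 at 7.15, ZMAT3 at 4.28, MDM4 at 1.60, BBC3 at 1.59 and FAS at 0.878. The only neighbours in this order whose ranges over the 6 libraries overlapped were ZMAT3 and MDM4, and MDM4 and BBC3. The genes outside the lists whose centred log2 values were closest to those of MDM2 over the 6 libraries were DPF1, C14orf28 and APEX1. Their root mean square differences from MDM2 were 0.0614, 0.0659 and 0.0694 on the log2 scale, and none of the 3 passed the test (adjusted p = 0.246, 0.21 and 0.127). Like MDM2, each had its highest value in empty vector library 2. As they were chosen for likeness to MDM2 over these libraries, that is no separate finding.

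A wider list of 101 p53 target genes held 90 that were listed and 89 that were tested, SFN being listed below the filter. Of the 89, 8 rose and 10 fell, or 20.2%, beside 13.5% of all genes. Without the members the counts were 6 higher and 9 lower of 81, or 18.5%. Its median log2 fold change was 0.03, the same as over all genes, and its called genes went in both directions. The number past the threshold was 5 without LINC00888 library 1, 7 without LINC00888 library 2, 8 without LINC00888 library 3, 9 without empty vector library 2, 6 without empty vector library 3 and 12 without empty vector library 1.

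SYTL1, a membrane traffic protein, had the smallest p of the list and rose to 9.51, 9.59 and 8.71 FPKM in LINC00888 libraries, against 6.35, 6.24 and 6.17 in empty vector libraries (log2 fold change 0.53, SE 0.05, adjusted p = 0.0045 by limma). ANKRA2, an ankyrin repeat protein, rose to 9.35, 8.93 and 9.03 FPKM in LINC00888 libraries, against 6.34, 6.59 and 7.01 in empty vector libraries (log2 fold change 0.43, SE 0.05, adjusted p = 0.00782). FAM210B, a mitochondrial protein, rose to 50.8, 50.04 and 50.4 FPKM in LINC00888 libraries, against 43.5, 43.8 and 42.3 in empty vector libraries (log2 fold change 0.22, SE 0.03, adjusted p = 0.0107). These 3 kept their calls without each of the 6 libraries. PHLDA3, an inhibitor of AKT, fell to 7.93, 7.45 and 7.65 FPKM in LINC00888 libraries, against 9.25, 9.68 and 9.58 in empty vector libraries (log2 fold change -0.29, SE 0.05, adjusted p = 0.0143). Its call was lost without LINC00888 library 2 or empty vector library 3 (adjusted p up to 0.0551).

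**Figure D4:**
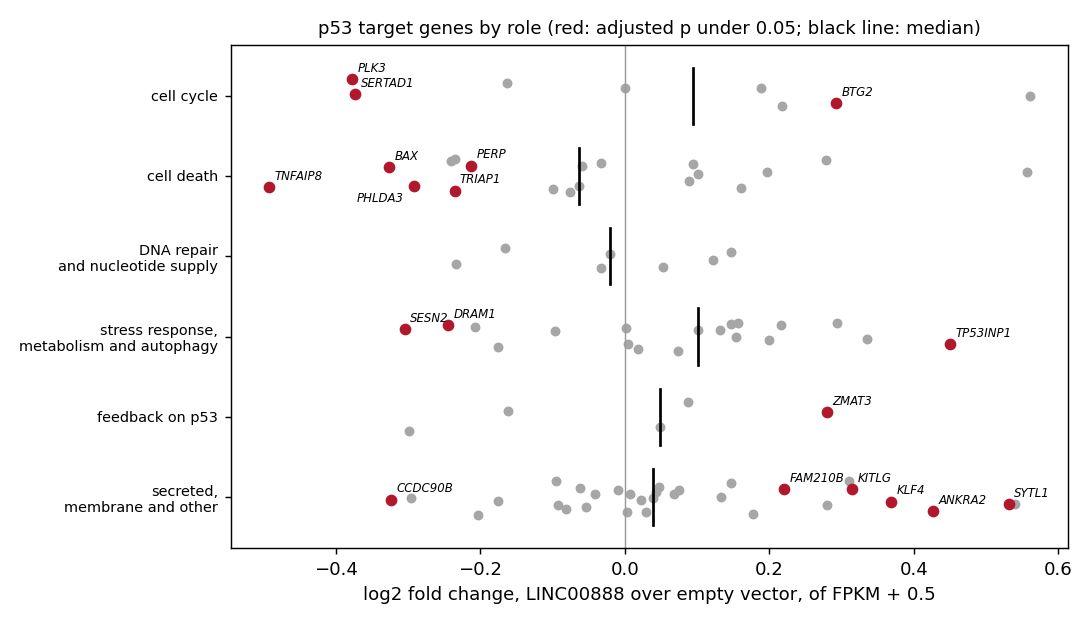
Log2 fold changes of the tested p53 target genes, LINC00888 over empty vector, grouped by role, with genes past the threshold in red and the median of each role as a black line. Of the 19 cell death genes 5 fell and 0 rose, and of the 31 in the last group 5 rose and 1 fell. Of all genes tested, 8.02% were higher and 5.46% lower. No test compared the roles.

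By role, 5 of the 10 falls were cell death targets and 5 were not, and no test compared the roles. Of 19 cell death targets tested, 5 fell, BAX, PHLDA3, TNFAIP8, TRIAP1 and PERP, or 26.3%, beside 5.46% of all genes, and 0 rose. Their median log2 fold change was -0.06. TNFAIP8, which counters apoptosis, had 1.23 ± 0.0605 FPKM with LINC00888 and 1.95 ± 0.291 with the empty vector (SD, n = 3 each; adjusted p = 0.0283). TRIAP1, an inhibitor of apoptosis, had 27.01 ± 0.832 FPKM with LINC00888 and 31.9 ± 1.301 with the empty vector (adjusted p = 0.0233) and PERP, a membrane protein of desmosomes and apoptosis, 31.7 ± 1.11 with LINC00888 and 36.8 ± 1.54 with the empty vector (adjusted p = 0.0326). The most abundant of the cell death list, EI24, a protein of the endoplasmic reticulum, did not pass (log2 fold change -0.10, adjusted p = 0.509). The 5 that fell include genes known to promote and genes known to counter cell death. Leaving out single libraries ended the calls of these 3 genes for 5 of the 6 libraries each (adjusted p up to 0.104), and PERP lost its call under eBayes without trend and robust. TNFAIP8 and TRIAP1, like PLK3, SERTAD1, SESN2, DRAM1, KITLG, KLF4 and CCDC90B, were named after their values were seen.

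Cell cycle targets split, with 1 of 8 higher and 2 lower, or 37.5%, beside 13.5% of all genes. BTG2, an antiproliferative protein, rose to 14.9 ± 0.809 FPKM with LINC00888, against 12.05 ± 0.408 with the empty vector (SD, n = 3 each; adjusted p = 0.0223). The kinase PLK3 fell to 0.908 ± 0.0946 FPKM with LINC00888, against 1.33 ± 0.136 with the empty vector (adjusted p = 0.0438), and SERTAD1, a regulator of CDK4, to 1.39 ± 0.183 with LINC00888, against 1.94 ± 0.0718 with the empty vector (adjusted p = 0.0402). CCNG1, the most abundant of them, had 29.2 ± 2.12 FPKM with LINC00888 and 25.6 ± 1.29 with the empty vector and did not pass (adjusted p = 0.108). In stress response and metabolism 15.8% of 19 passed, near the 13.5% of all genes: 1 rose, TP53INP1, and 2 fell. These were SESN2, a stress-responsive regulator of mTORC1, at 6.13 ± 0.364 FPKM with LINC00888 and 7.68 ± 0.238 with the empty vector (adjusted p = 0.0237), and DRAM1, a lysosomal protein of autophagy, at 7.03 ± 0.0463 with LINC00888 and 8.42 ± 0.251 with the empty vector (adjusted p = 0.0212). CMBL, a cytosolic hydrolase, and GPX1, which removes peroxides, were the most abundant of these 19 and did not pass (log2 fold changes 0.07 and 0.29, adjusted p = 0.184 and 0.315). Of 5 targets that feed back on p53, ZMAT3 rose and 0 fell, or 20%, beside 13.5% of all genes. RFWD2, a ubiquitin ligase for p53, did not pass (log2 fold change 0.05, adjusted p = 0.636). In DNA repair and nucleotide supply 0 of 7 passed, with XPC, a sensor of DNA damage, at a log2 fold change of -0.02 (adjusted p = 0.867). Of the last group, of secreted, membrane and other proteins, 5 of 31 rose and 1 fell. That is 19.4% past the threshold, beside 13.5% of all genes. Besides SYTL1, ANKRA2 and FAM210B, the rises were KITLG, the ligand of KIT (1.48 ± 0.0535 FPKM with LINC00888 and 1.09 ± 0.0784 with the empty vector, adjusted p = 0.0346), and the transcription factor KLF4 (4.15 ± 0.296 with LINC00888 and 3.10 ± 0.197 with the empty vector, adjusted p = 0.0263). The fall was CCDC90B, a mitochondrial protein, at 4.87 ± 0.190 FPKM with LINC00888 and 6.22 ± 0.197 with the empty vector (adjusted p = 0.016). KITLG and KLF4 lost their calls after cyclic loess and after quantile normalization. Single left-out libraries ended those of BTG2, PLK3, SERTAD1, SESN2, DRAM1, KITLG, KLF4 and CCDC90B, for at least 3 libraries each.

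Counting both directions, genes that act on p53 itself passed about as often as other genes, but all of their calls were falls. Of 44 regulators 43 were tested, and 0 rose and 5 fell, or 11.6%, beside 13.5% of all genes. Of all genes 8.02% were higher and 5.46% lower. After quantile normalization 1 rose and 7 fell. Of the 5 that fell, 4 are described here. TRIM28, a corepressor that works with MDM2 on p53, fell to 41.5, 43.0 and 41.2 FPKM in LINC00888 libraries, against 48.6, 49.0 and 48.3 in empty vector libraries (log2 fold change -0.21, SE 0.03, adjusted p = 0.0133 by limma). USP7, the deubiquitinase that stabilises MDM2 and p53, fell to 15.5, 14.4 and 14.8 FPKM in LINC00888 libraries, against 18.3, 18.1 and 17.5 in empty vector libraries (log2 fold change -0.26, SE 0.04, adjusted p = 0.0165). USP10, which removes ubiquitin from p53, fell to 9.65, 9.39 and 9.58 FPKM in LINC00888 libraries, against 12.8, 10.999 and 14.1 in empty vector libraries (log2 fold change -0.38, SE 0.09, adjusted p = 0.0415). The mitotic kinase AURKA, which phosphorylates p53, fell to 23.6, 23.4 and 23.4 FPKM in LINC00888 libraries, against 27.6, 29.3 and 27.1 in empty vector libraries (log2 fold change -0.25, SE 0.04, adjusted p = 0.0148). In these 4 the LINC00888 libraries lay below every control.

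Among the most abundant regulators outside the calls, NPM1, a nucleolar protein that binds MDM2, had 218 ± 7.18 FPKM with LINC00888 and 245 ± 10.97 with the empty vector (SD, n = 3 each) and lay just outside the threshold (adjusted p = 0.0584). RPL11, a ribosomal protein that inhibits MDM2, did not pass (log2 fold change 0.04, adjusted p = 0.696), nor did CSNK1A1, a kinase that works with MDM4 (-0.08, adjusted p = 0.215), nor the deacetylase HDAC1 (0.05, adjusted p = 0.317) and the demethylase KDM1A (-0.09, adjusted p = 0.338). The median of the regulators was 0.03. Their count was 1 without any of the LINC00888 libraries, 2 without empty vector library 1 and 3 without empty vector library 3. It was 4 without empty vector library 2. TRIM28 lost its call without LINC00888 library 1, USP7 without LINC00888 library 2, LINC00888 library 3 or empty vector library 1, AURKA without any LINC00888 library and USP10 without each library but empty vector library 2 (adjusted p up to 0.108).

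Over all genes, 941 were higher and 640 lower with LINC00888, and after median ratio scaling the split was 805 higher and 763 lower, so the balance of directions depends on the scaling. After quantile normalization it was 688 higher and 648 lower, and after cyclic loess 686 higher and 669 lower. With median ratio scaling, 8 genes of the wider target list rose and 12 fell, and with either of the other scalings 7 rose and 13 fell.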

How the data were processed

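Strand-specific libraries of polyA-selected RNA were read from paired ends for 150 cycles, per the labels' protocols. Tools named in the submitters' processing notes, with no version given, are StringTie, HISAT2, cutadapt and FastQC. The notes name only a mouse build (GRCm38), although the deposited identifiers are human. Values are FPKM computed by the authors per library, per the file headers, with no further scaling recorded and no replicates pooled. FPKM gives no counts, so no counting intervals were computed.

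Here, genes and transcripts that reached an FPKM of 0.5 in 3 or more of the 6 libraries were tested on log2(FPKM + 0.5) with limma 3.58.1 (R 4.3.3; lmFit, and eBayes set to trend and robust). P-values are two-sided and were adjusted by Benjamini and Hochberg over all 11726 genes or 26941 transcripts, with a threshold of 0.05. The pseudocount makes fold changes of low genes smaller. The procedure was also run on simulated data with known changes and independent noise. That run does not measure how reliable the calls in these libraries are. Ratios and transcript shares were compared with exact permutation tests over libraries. Alternatives were other pseudocounts, filters, scalings and eBayes settings, the replicate number as a block and leaving out each library.

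The members, lists and tests were chosen with earlier results of these data known. Named genes were all members, from each other list those past the threshold (the 6 with the smallest p where more passed), and up to 2 of the most abundant genes of a sublist. Some genes of the pathway that this rule would name are not reported here. Start windows come from RefSeq (GRCh38.p14) and transcripts from GENCODE release 29.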

Additional observations from a re-analysis of the deposited data

How the results depend on the processing

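With all 6 libraries and no block, other pseudocounts, filters, scalings and eBayes settings left 3 members past the threshold (2 higher, 1 lower). The count of p53 regulators was 8 (1 higher, 7 lower) after quantile normalization, against 5 (0 higher, 5 lower), and the cause was not tested. With 1 library left out, between 536 and 815 of all genes passed, against 1581, with 1 to 2 members, 5 to 12 wider p53 target genes, 1 to 4 regulators and 0 to 2 apoptosis genes. These fits have fewer samples. The fit that took the replicate number as a block called 429 genes, with 1 member (TP53INP1, adjusted p = 0.0369), 3 target genes, 0 regulators and 0 apoptosis genes. BAX (adjusted p = 0.0545) and ZMAT3 (0.0656) lost their calls there. Whether the numbers pair the libraries is not in the labels. Deviations of same-numbered libraries from their group means correlated at 0.0377, 0.0222 and -0.0347 across genes, and not every library correlated best with its own number. Such correlations over all genes cannot settle the pairing for single genes. Why fewer genes passed with the block was not tested. MDM4 ran from -0.62 (without LINC00888 library 1) to 0.71, and was -0.09 without empty vector library 2, and the log2 ratio of MDM4 to MDM2 ran from -0.56 to 1.09 with 1 library left out. BBC3 turned to -0.0060 after cyclic loess. The stricter filter left MDM4 and FAS untested. The depth, and so the counting error of low genes such as FAS, MDM4 and BBC3, is unknown.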
